A study of Mus musculus with 6 samples.

Results

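Prostaglandins are short-lived lipid signals made from arachidonic acid, and the genes described here are 10 of the mouse genes that make, sense and break them down: Pla2g4a, Ptgs1, Ptgs2, Ptges, Ptges2, Ptges3, Ptgds, Ptgis, Ptger4 and Hpgd. They were taken by name from the 35127 genes summed from the deposited transcript tables, and all 10 passed the filter on low counts that left 14359 genes for testing. RNA was sequenced from mouse astrocytes in 6 libraries, 3 tumour libraries from brains carrying an SCLC (small cell lung cancer) brain allograft and 3 sham libraries from brains given a sham injection. The sources used here do not give strain, genotype, age, the tumour line or the way the astrocytes were isolated. They also do not say whether the libraries of a group came from separate animals or cultures, so the p-values cover the spread of these 6 libraries alone and that spread may be technical. Library totals ranged from 22133723 to 25800897 estimated reads. In every test "tumour over sham" compares the 3 tumour libraries with the 3 sham libraries.

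Tumour libraries 1 to 3 were close to each other, as were sham 1 and 2, and sham 3 stood apart from both sets. The root mean square log2 difference over tested genes was 0.322 to 0.352 within the tumour group, 0.351 between sham 1 and 2, and 0.802 and 0.795 between sham 3 and each of them. Sham 3 was 0.738 to 0.746 from the tumour libraries and sham 1 and 2 were 0.734 to 0.749 from them, so sham 3 lay farther from its own group than from the tumour group. The share of mitochondrial reads was 6.66% and 6.2% in sham 1 and 2, but 4.2% in sham 3 and 4.05% to 4.23% in the tumour libraries. Its part in the split of the sham libraries was not tested. For that reason the sham libraries are given one by one for the members. The astrocyte markers Gfap, Aldh1l1, Slc1a3, Slc1a2, Aqp4, S100b, Gja1 and Sox9 were all tested, with a summed level of 915 to 952 TPM (a level scaled for transcript length and depth) in the tumour libraries and 1474, 1496 and 898 TPM in sham 1 to 3. Gja1 was the largest part of that sum and was called lower (log2 fold change -0.94, Benjamini-Hochberg adjusted p by edgeR = 0.0268). Aldh1l1 was called higher (0.48, adjusted p = 0.0215), and the others were not called, so the list did not move as one. Fibroblast markers were also abundant in all libraries, with a summed level over 9 genes of 1246 to 1272 TPM in the tumour libraries and 1270, 1299 and 1948 TPM in sham 1 to 3. Ptprc, Cldn5, Mog and Rbfox3, defining markers of leukocytes, endothelium, oligodendrocytes and neurons, had fewer than 3 reads in every library, whereas Cdh5, an endothelial gene, and Cldn11, an oligodendrocyte gene also known in other cells, were abundant. Of the neuron list, Stmn2 had 1804 to 3003 reads, while Snap25 had at most 8 and Slc17a7 at most 15. Gad1 was called higher, with 152 to 163 reads in the tumour and 39 to 50 in the sham libraries (log2 fold change 1.70, adjusted p by edgeR = 0.0019). Tubb3 was called lower, with 55 to 68 against 104 to 134 reads (-1.04, adjusted p = 0.0172), and no other gene of that list was called. Of the microglia and macrophage list, Tmem119 had 1844 to 2430 reads and Cd68 122 to 1136. C1qa had 14 to 96 reads, Lyz2 9 to 91 and C1qb 3 to 52, and the other genes had at most 23. The low markers therefore do not show that these cell types were absent.

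As background, cytosolic phospholipase A2 (Pla2g4a) frees arachidonic acid from membranes, and the cyclooxygenases, constitutive COX-1 (Ptgs1) and inducible COX-2 (Ptgs2), turn it into the common precursor of all prostaglandins. Terminal synthases then set the product: Ptges, Ptges2 and Ptges3 encode enzymes that form prostaglandin E2, Ptgds forms prostaglandin D2 and Ptgis prostacyclin. Ptger4 encodes the E2 receptor EP4, which raises cyclic AMP, and Hpgd encodes the dehydrogenase that inactivates prostaglandins. In brain, COX-2 is known as a gene of neuronal activity and inflammation, and Ptgds is a well-known product of the meninges, choroid plexus and oligodendrocytes.

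The stretches upstream of Ptgs1, Ptgs2 and Ptgds are shown because these are the members with the clearest rise, the inducible isozyme, and the largest difference between sham libraries. They are the 250 bases before the RefSeq start in GRCm38.p6 (the assembly of mm10), at chr2:36230176-36230425 on the plus strand, chr1:150099781-150100030 on the plus strand and chr2:25469750-25469999 on the minus strand, and a further 30 bases of Ptgs2 lie just after the start, at chr1:150100034-150100063. Capitals mark letters that match one of 7 motifs on either strand.
Ptgs1 upstream: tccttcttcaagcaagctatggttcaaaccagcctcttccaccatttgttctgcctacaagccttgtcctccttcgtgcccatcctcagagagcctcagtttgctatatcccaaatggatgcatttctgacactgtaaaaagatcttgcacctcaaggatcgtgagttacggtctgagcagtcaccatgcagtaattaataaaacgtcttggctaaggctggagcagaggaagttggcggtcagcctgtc
Ptgs2 upstream: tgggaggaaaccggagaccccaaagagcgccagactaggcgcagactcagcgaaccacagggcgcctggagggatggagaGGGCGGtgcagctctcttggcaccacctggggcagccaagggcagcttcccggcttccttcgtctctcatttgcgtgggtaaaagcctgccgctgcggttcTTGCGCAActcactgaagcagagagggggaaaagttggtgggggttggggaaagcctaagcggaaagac
Ptgs2 after the start: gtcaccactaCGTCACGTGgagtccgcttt
Ptgds upstream: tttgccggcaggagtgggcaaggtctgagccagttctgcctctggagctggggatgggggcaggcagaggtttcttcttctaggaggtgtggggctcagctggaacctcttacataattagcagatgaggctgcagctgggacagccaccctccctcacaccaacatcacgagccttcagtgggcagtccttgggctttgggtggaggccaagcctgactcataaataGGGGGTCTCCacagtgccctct
Of the motifs searched, the C/EBP motif reads TTGCNNAA and the E-box reads CACGTG. The core of hypoxia response elements, which lies within the E-box, reads ACGTG. The CRE half-site is TGACG and the GC box is written GGGCGG, while the TATA box has the letters TATAAA, and the last was the NF-kB motif. In windows of 300 bases, 250 before to 50 after the start, Ptgs1 held none of them. Ptgs2 held a C/EBP match 69 bases before the start, found in 10.8% of 32817 windows, and a GC box match, found in 35.6%. It also held an E-box match, found in 7.1% of windows, which overlaps a CRE half-site match, found in 20.8%, beginning 14 bases after the start. Ptgds held an NF-kB match, found in 8.5% of windows. Such a match describes letters only. Of the 10 members 9 had an entry in the RefSeq promoter table, all but Ptgis.

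Among the 10 members 1 rose and 0 fell in the tumour libraries (Benjamini-Hochberg adjusted p below 0.05 over all tested genes, from the quasi-likelihood test of edgeR), where 10.5% of all tested genes rose and 10.4% fell (1506 and 1492 genes, or 1318 and 1945 when scaled by library totals alone, with the same 1 and 0 members). The gene that rose was Ptgs1. At an unadjusted p below 0.05 there was also 1 lower member, Ptges2, and DESeq2 and limma-voom likewise called 1 member higher and 0 lower. The median log2 ratio was 0.05 over the members and -0.02 over all tested genes. In 3 members, Ptgs1, Ptgs2 and Ptges3, all tumour libraries lay above all sham libraries, and in 1, Ptges2, all lay below, against 22.2% and 21.9% of tested genes. Without sham 3 the fit called 3 members higher (Ptgs1, Ptgs2 and Ptges3) and 4 lower (Ptgds, Ptger4, Ptges and Ptges2), but it called 29.1% of all tested genes higher and 28.6% lower. When the tumour libraries were summed to 1 value and sham 1 and 2 to another, leaving 1 against 2, edgeR called 0 members and 0 of 15684 genes, with 403 higher and 175 lower at an unadjusted p below 0.05.

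**Figure D1:**
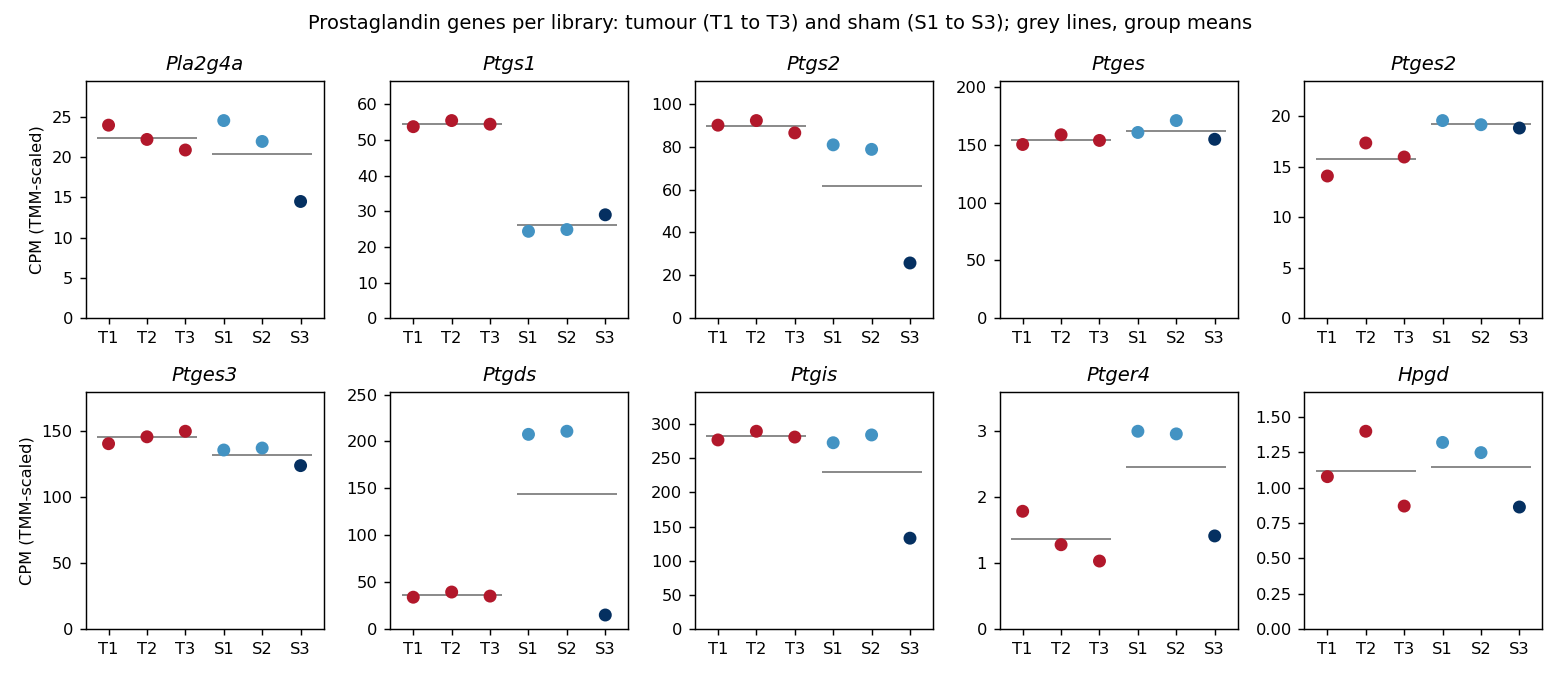
Level of each of the 10 genes in CPM (counts scaled to a common library size, scaled by TMM; linear axes from 0) in tumour libraries T1 to T3 (red), sham libraries S1 and S2 (light blue) and S3 (dark blue), with grey lines at the group means. Ptgs1 shows tumour points near 54 CPM above all sham points, while Ptgs2, Ptgds, Ptgis and Ptger4 split the sham libraries into S1 and S2 against S3.

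Pla2g4a, the phospholipase gene among the members, showed no difference beyond the spread of the sham libraries. The gene, on chromosome 1 from 149829618 to 149961290 (mm10), stood at 23.9, 22.2 and 20.9 CPM in tumour libraries 1 to 3 and at 24.5, 21.9 and 14.5 CPM in sham 1 to 3. The groups overlap, with the tumour libraries close to sham 1 and 2 and sham 3 the lowest library. The log2 fold change, called log2 ratio below, was 0.14 (SE 0.19, adjusted p by edgeR = 0.656). In bulk RNA of this kind, fewer cells of a type and less RNA per cell cannot be told apart.

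Ptgs1, the gene of the constitutive cyclooxygenase, was about 2 times higher in the tumour libraries. It lies on chromosome 2 from 36230426 to 36252272 and stood at 53.7, 55.4 and 54.4 CPM in tumour libraries 1 to 3 against 24.4, 24.9 and 28.99 CPM in sham 1 to 3. The groups did not overlap, and sham 3 was close to the other sham libraries for this gene. The fold was 2.09 (log2 ratio 1.06, SE 0.08, adjusted p by edgeR = 0.00094). Leaving out any single library kept the call, with log2 fold changes of 1.01 to 1.14 and adjusted p between 2.61e-17 and 0.0132. It was lost only with the near libraries summed (log2 ratio 1.02, unadjusted p = 0.0105, adjusted p = 0.999). With offsets for transcript length the log2 ratio was 0.90. Microglia express Ptgs1, so the microglia and macrophage markers are given beside it. Of 12 such markers 7 were tested, of which Cd68 rose and none fell, and their summed level was 130 to 136 TPM in the tumour libraries and 70.1, 69.1 and 86.0 TPM in sham 1 to 3. Cx3cr1 (2 to 7 reads in the tumour libraries, 0 to 4 in the sham libraries), Itgam (at most 9 reads) and Ptprc were at or near 0, and most of that sum came from Tmem119 and Cd68. Tmem119 did not pass the test (log2 ratio -0.06, adjusted p by edgeR = 0.801), so the higher sum came from Cd68. C1qa, C1qb, Lyz2 and Mrc1 were lower in the tumour libraries than in sham 1 and 2 but close to or above sham 3. None of those tested was called. C1qa had 21 to 28 reads in the tumour libraries and 83, 96 and 14 in sham 1 to 3, C1qb had 3 to 13 and 29, 52 and 3, and Lyz2 had 23 to 44 and 91, 81 and 9. Mrc1, which was not tested, had 1 to 6 reads and 16, 13 and 2. Aif1 went the other way, with 11 to 16 reads in the tumour libraries and 0, 2 and 5 in sham 1 to 3. It was not called (log2 ratio 2.31, adjusted p by edgeR = 0.085). Csf1r, which was not tested, had 7 to 23 reads and 9, 4 and 12. P2ry12, which was not called, had 7 to 18 reads and 14, 10 and 4. The part of such cells in the rise of Ptgs1 was not tested. Cd68, a lysosomal protein gene, had 41.3 to 45.8 CPM in the tumour against 5.07 to 10.2 CPM in the sham libraries.

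Ptgs2, the inducible cyclooxygenase gene, was close to sham 1 and 2 in the tumour libraries and far above sham 3. It lies on chromosome 1 from 150100031 to 150108227. Its levels were 90.1, 92.2 and 86.5 CPM in tumour libraries 1 to 3, 80.9 and 78.8 CPM in sham 1 and 2, but 25.8 CPM in sham 3. All tumour libraries lay above all sham libraries, by a small margin over sham 1 and 2 (a ratio of means of 1.12) and by a wide one over sham 3 (3.48). The log2 ratio (0.53, SE 0.39) did not pass the test (adjusted p by edgeR = 0.377). Without sham 3 it was 0.16 (SE 0.05, adjusted p = 0.00297), smaller in size though called.

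Compared per length, the 2 isozymes were present at similar levels in the tumour libraries. Ptgs1 had 31.1 ± 1.13 TPM (SD, n = 3) there and 16.2 ± 2.18 TPM in the sham libraries, and Ptgs2 35.4 ± 0.865 and 23.8 ± 11.6 TPM. Their summed level was 66.3, 68.5 and 64.7 TPM in tumour libraries 1 to 3 against 44.5, 48.0 and 27.5 TPM in sham 1 to 3, which do not overlap. Ptgs2 made up 53.8%, 52.7% and 53.2% of that sum in the tumour libraries, 69.1% and 62.8% in sham 1 and 2, and 37.8% in sham 3. The tumour share therefore lay between the sham shares, with a difference of means of -3.29 percentage points (exact permutation test, two-sided, p = 0.8, where 0.1 is the smallest p that 3 against 3 libraries can give). Without sham 3 the difference was -12.67 percentage points, and without sham 1 it was 2.96.

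**Figure D2:**
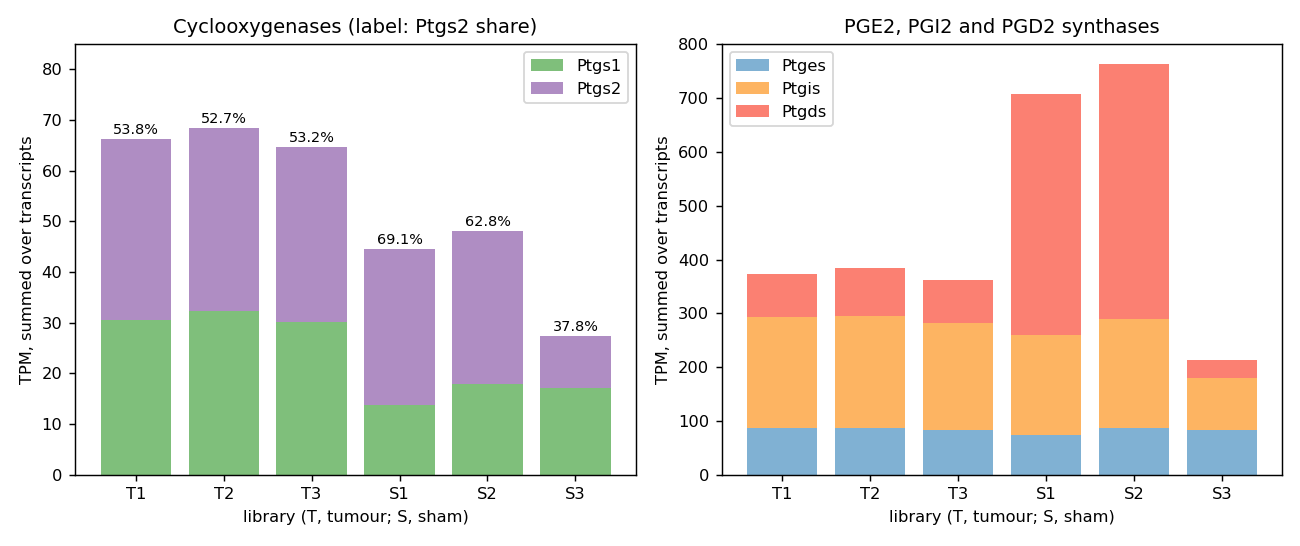
Stacked bars of TPM summed over each gene's transcripts in the 6 libraries (T, tumour; S, sham), for both cyclooxygenases on the left, with the Ptgs2 share in percent above each bar, and for Ptges, Ptgis and Ptgds on the right. The tumour bars on the left reach 64.7 to 68.5 TPM, above all sham bars, and the Ptgds part on the right is 63.2% and 62.1% of the bar in S1 and S2 against 15.6% to 23.2% in the others.

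None of the 3 prostaglandin E synthase genes passed the test. Ptges, the inducible microsomal enzyme, on chromosome 2 from 30889471 to 30929863, stood at 150.3, 159 and 154 CPM in the tumour libraries against 161, 171 and 155 CPM in sham 1 to 3. These ranges overlap, and sham 3 does not stand apart (log2 ratio -0.07, SE 0.07, adjusted p by edgeR = 0.484). Ptges2, a second membrane-associated enzyme, on chromosome 2 from 32395896 to 32405772, stood at 14.1, 17.4 and 16.0 CPM in the tumour libraries against 19.6, 19.2 and 18.8 CPM in sham 1 to 3. Every tumour library was below every sham library, but the log2 ratio (-0.28, SE 0.10) had an adjusted p of 0.0965. Ptges3, the cytosolic enzyme that is also the HSP90 co-chaperone p23, lies on chromosome 10 from 128058954 to 128077272. It had 140.2, 145 and 149.6 CPM in the tumour libraries against 135, 137 and 124 CPM in the sham libraries (log2 ratio 0.14, SE 0.07, adjusted p by edgeR = 0.203). A processed pseudogene of it, Ptges3-ps, took 0 to 50 reads per library, so the split of reads between the copies is uncertain by a small amount.

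Ptgds, the gene of the lipocalin-type prostaglandin D synthase, had the largest difference between sham libraries among the members. It lies on chromosome 2 from 25466709 to 25470046 and stood at 33.8, 39.3 and 35.0 CPM in tumour libraries 1 to 3, at 208 and 211 CPM in sham 1 and 2, but at 14.8 CPM in sham 3. The tumour libraries lay between the sham libraries, 5.80-fold below the mean of sham 1 and 2 and 2.43-fold above sham 3, so the groups overlap. Sham 1 and 2 themselves averaged 14.1-fold more than sham 3. The fit over all libraries gave -2.00 on the log2 scale (SE 0.84, adjusted p by edgeR = 0.139), and without sham 3 it gave -2.54 (SE 0.05, adjusted p = 7.89e-31). Cell types known for Ptgds were checked by their markers. The choroid plexus markers summed to 24.4 to 30.6 TPM in the tumour libraries and to 37.2, 35.1 and 12.8 TPM in sham 1 to 3, so that sum was also lowest in sham 3. It was low there through Ttr, Folr1 and Otx2, whereas Clic6 of the same list was not lowest in sham 3 (5.06, 5.45 and 5.94 CPM in sham 1 to 3). Of the oligodendrocyte markers, Mag had at most 7 reads and Mog at most 2 reads in a library. The summed fibroblast list was highest in sham 3, through the collagen genes Col1a1, Col1a2 and Col3a1. Other genes of that list were lowest in sham 3 among the sham libraries, as Ptgds was: Dcn, Pdgfra (191, 181 and 127.5 CPM in sham 1 to 3), Lum (60.8, 55.7 and 45.9 CPM) and Slc6a13 (53, 65 and 18 reads, against 5 to 8 reads in the tumour libraries). In the tumour libraries Dcn and Pdgfra lay above every sham library, while Lum and Slc6a13 lay below. Aldh1a2 of the same list was not lowest in sham 3 (2.68, 3.37 and 2.995 CPM in sham 1 to 3). The part of these cell types in the level of Ptgds was not tested.

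Ptgis, the prostacyclin synthase gene, had the highest mean level per length among the members in the tumour libraries, at 205 ± 4.98 TPM (SD, n = 3). It lies on chromosome 2 from 167191805 to 167240604 and had 277, 289.5 and 281 CPM in tumour libraries 1 to 3, while sham 1 and 2 had 273 and 284 CPM and sham 3 had 133 CPM. The tumour libraries matched sham 1 and 2 to within a ratio of means of 1.015, and exceeded sham 3 by 2.13 times (log2 ratio 0.30, SE 0.27, adjusted p by edgeR = 0.481). Dcn, a fibroblast gene, had a like order of levels, with 155 to 157 CPM in the tumour libraries against 132, 123 and 52.5 CPM in sham 1 to 3, while Col1a2 was highest in sham 3, at 3825 CPM against 2048 to 2345 CPM in the other libraries. Their part in the level of Ptgis was not tested.

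The make-up of the sum of Ptgds, Ptges and Ptgis, compared per length, followed Ptgds. Ptges2 and Ptges3 were not part of that sum, so its shares are not those of the whole terminal step. Ptges3 had 150 ± 4.19 TPM (SD, n = 3) in the tumour and 133 ± 4.55 TPM in the sham libraries. Ptgds was 21.4% to 23.2% of the summed TPM of Ptgds, Ptges and Ptgis in the tumour libraries, 63.2% and 62.1% in sham 1 and 2, and 15.6% in sham 3. Ptgis was 54.3% to 55.5% of that sum in the tumour libraries, 26.4% and 26.5% in sham 1 and 2, and 45.1% in sham 3. Ptges had 85.1 ± 1.89 TPM (SD, n = 3) in the tumour and 81.4 ± 6.86 TPM in the sham libraries, and it was 39.2% of the sum in sham 3 against 10.4% and 11.4% in sham 1 and 2.

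The receptor and the inactivating enzyme were both rare. Ptger4, on chromosome 15 from 5206661 to 5244187, had 43, 31 and 26 reads in tumour libraries 1 to 3 against 68, 71 and 31 reads in sham 1 to 3, or 1.03 to 1.78 CPM and 2.99, 2.95 and 1.41 CPM. Sham 3 lay within the tumour range, and the log2 ratio (-0.85, SE 0.39) did not pass the test (adjusted p by edgeR = 0.166), whereas without sham 3 it was -1.13 (adjusted p = 0.00223). Ptger4 shares 82 exonic bases with Ttc33 on the other strand, a gene at 19.7 to 28.3 CPM, so a few of these reads may belong to either gene. Hpgd, on chromosome 8 from 56294585 to 56321043, had 22 to 34 reads in the tumour libraries and 19 to 30 in the sham libraries. Its levels overlapped (1.11 ± 0.266 and 1.14 ± 0.246 CPM, SD, n = 3), and with a log2 ratio of -0.04 and an SE of 0.33 (adjusted p by edgeR = 0.948) no difference was detectable at this depth.

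**Figure D3:**
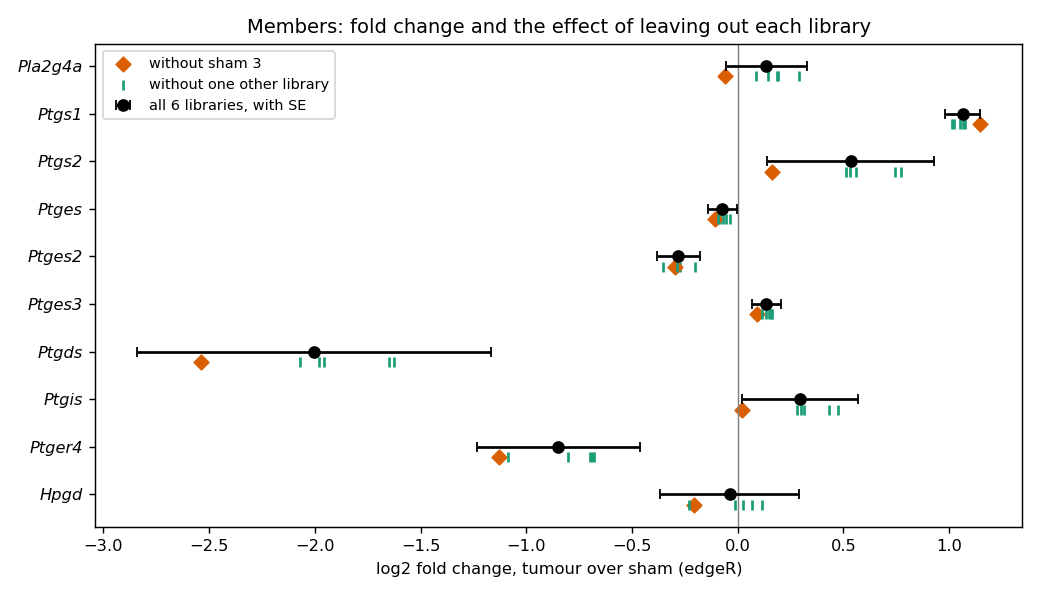
Log2 fold change of each of the 10 genes, tumour over sham, from edgeR over all 6 libraries (black points, bars are the SE), with the values without sham 3 (orange diamonds) and without each of the other 5 libraries (green ticks). Ptgs1 stays between 1.01 and 1.14, whereas Ptgds runs from -2.54 without sham 3 to -1.63 without sham 2.

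The main transcripts were largely shared between the groups. Ptgs2 reads were all assigned to the transcript Ptgs2-201, and the full-length coding transcript Ptgs1-201 had 1286 to 1370 reads in the tumour and 543 to 627 in the sham libraries. In Ptgs1 short noncoding transcripts took 14.2% of the gene's TPM for Ptgs1-203 in sham 2 from 12.6 reads, so TPM shares of this gene carry that uncertainty. For Ptgds the coding transcripts Ptgds-202 and Ptgds-203 together held most of the gene in every library, Ptgds-202 alone 45.7% to 63.7% of the TPM in the tumour libraries and 45.1%, 45.6% and 69.6% in sham 1 to 3. Ptgis-201 held 72.8% to 85.9% of Ptgis TPM in the tumour libraries and 85.1%, 83.2% and 80% in sham 1 to 3. These shares overlap between groups. In Ptges2 a retained-intron transcript held 70.1% to 73.2% of the gene's TPM in the tumour and 70.6% to 74.9% in the sham libraries. That transcript is short (765 bases) and took 78.7 to 124.3 reads per library. The coding transcript Ptges2-201 (4978 bases) took 261.3 to 334.8, so most reads of the gene were assigned to it. Ptger4 reads moved between its coding transcripts from library to library, with all of them on Ptger4-201 in tumour 3 and none there in tumour 1 and 2, so no transcript shares are read for that gene.

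Of 65 other genes of the pathway 47 were tested, of which 8 rose and 6 fell, beside the shares of 10.5% and 10.4% among all tested genes. Their median log2 ratio was 0.10. Of the 14 calls those of Mgll, Cebpb and Nr3c1 held whichever library was left out. The counts were 3 higher and 1 lower without tumour 1 or 2, 2 and 1 without tumour 3, 6 and 2 with sham 1 left out, 5 and 3 with sham 2 left out, and 21 and 16 with sham 3 left out.

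**Figure D4:**
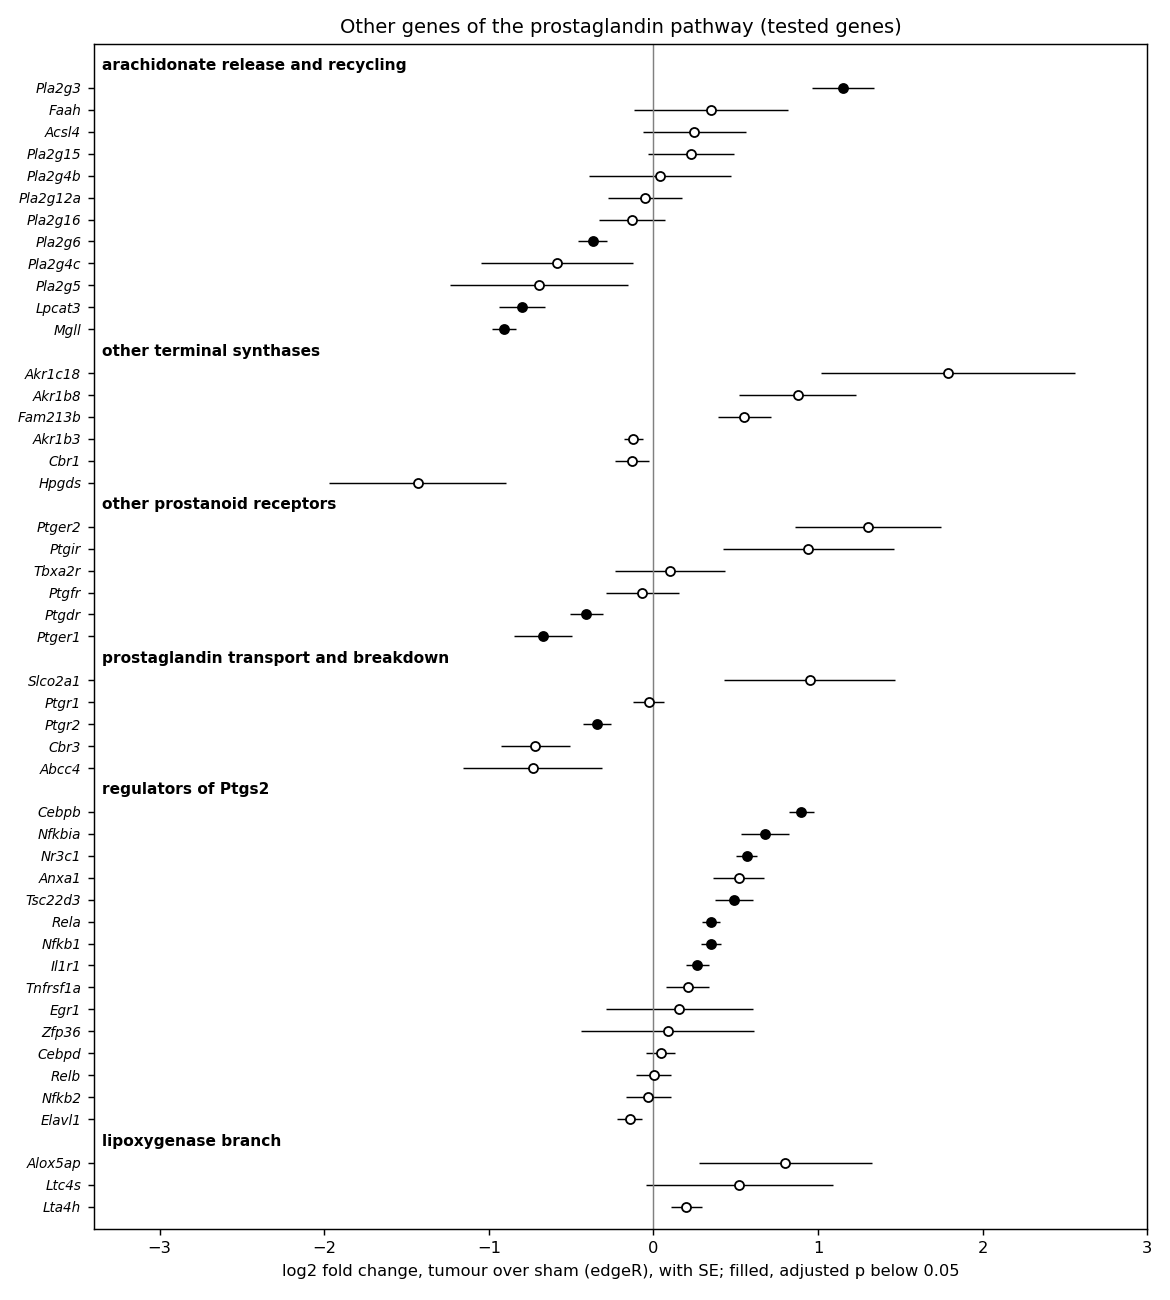
Log2 fold change, tumour over sham (edgeR, bars are the SE), of the 47 tested genes of 6 lists of other pathway genes, with filled points where the adjusted p was below 0.05. Filled points lie mostly to the right among regulators of Ptgs2 (7 higher, 0 lower) and to the left among genes of arachidonate release (1 higher, 3 lower). Among all tested genes 10.5% were higher and 10.4% lower.

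Of 20 genes that supply or recycle arachidonic acid 12 were tested, of which 1 rose, 3 fell and 8 were not called, with a median log2 ratio of -0.09. Mgll encodes monoacylglycerol lipase, which makes arachidonic acid from the endocannabinoid 2-arachidonoylglycerol and is known as a major source for brain prostaglandins. It fell from 156, 166 and 166 CPM in sham 1 to 3 to 91.3, 88.1 and 80.9 CPM in tumour libraries 1 to 3. The groups lay far apart and the sham libraries agree closely (log2 ratio -0.91, SE 0.07, adjusted p by edgeR = 0.000909). Lpcat3, which puts arachidonic acid back into phospholipids, fell from 99.0, 104 and 141 CPM to 62.9 to 69.4 CPM (log2 ratio -0.80, SE 0.14, adjusted p = 0.012). Its adjusted p was 0.0567 to 0.0665 without any 1 of the tumour libraries. The calcium-independent phospholipase gene Pla2g6 fell by 0.37 on the log2 scale (adjusted p = 0.0324), a call lost without any 1 library other than sham 3 (adjusted p 0.0815 to 0.13). Pla2g3, a secreted phospholipase gene, rose from 2.41 to 3.16 CPM under sham to 5.22 to 6.33 CPM (log2 ratio 1.15, SE 0.19, adjusted p = 0.00963), with an adjusted p of 0.0564 without tumour 2 and 0.0575 without tumour 3.

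Other terminal synthases were not called, with 6 of 7 tested. The 2 with the highest CPM averaged over all 6 libraries were Akr1b3, an aldo-keto reductase gene with prostaglandin F synthase activity, at 88.3 to 94.1 CPM in the tumour against 96.1 to 102 CPM in the sham libraries (log2 ratio -0.12, SE 0.06, adjusted p by edgeR = 0.176), and its relative Akr1b8. Akr1b8 had 46.5 to 48.0 CPM in tumour libraries 1 to 3, while sham 1 and 2 had 18.4 and 16.4 CPM and sham 3 had 42.8 CPM (log2 ratio 0.88, SE 0.36, adjusted p = 0.13), so sham 3 was close to the tumour libraries there. Its rank rests on the libraries where it is high, since Cbr1, a carbonyl reductase gene named after its values were seen, had the higher mean in the sham group (37.6 against 25.9 CPM).

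Of the 8 other prostanoid receptor genes 6 were tested, 0 rose and 2 fell. Ptgdr, the receptor gene for prostaglandin D2, had the highest mean TPM of them in both groups (9.34 and 12.2 TPM) and fell from 22.3, 20.6 and 25.4 CPM to 16.8 to 17.8 CPM (log2 ratio -0.41, SE 0.10, adjusted p by edgeR = 0.0344). Ptger1, the gene of the E2 receptor EP1, fell from 8.004, 7.27 and 6.04 CPM to 4.07 to 5.10 CPM (log2 ratio -0.67, SE 0.17, adjusted p = 0.04). Both calls held without sham 3, and that of Ptgdr without sham 2 (adjusted p = 0.0468). Otherwise they were lost: the adjusted p reached 0.13 for Ptgdr and 0.147 for Ptger1 without tumour 1, 0.105 and 0.149 without tumour 2, 0.129 and 0.0848 without tumour 3 and 0.083 and 0.119 without sham 1, and that of Ptger1 0.111 without sham 2.

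Among 5 genes of transport and breakdown 0 rose and 1 fell. That gene was Ptgr2, which encodes a prostaglandin reductase, at 87.6 to 88.4 CPM in the tumour libraries against 118, 119.5 and 98.3 CPM in sham 1 to 3 (log2 ratio -0.35, SE 0.09, adjusted p by edgeR = 0.0353). Its adjusted p was 0.0994 to 0.131 without any 1 library other than sham 3. The prostaglandin importer gene Slco2a1, named after its values were seen, had 53.7 to 59.3 CPM in tumour libraries 1 to 3, while sham 1 and 2 had 16.2 and 14.7 CPM and sham 3 had 58.0 CPM (adjusted p = 0.243), so sham 3 lay within the tumour range.

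Regulators known to act on Ptgs2 included 7 that rose and 0 that fell among 15 tested of 18, with a median log2 ratio of 0.27. Among all tested genes 10.5% rose and 10.4% fell. Cebpb, a transcription factor of the C/EBP family, rose from 86.2, 83.3 and 74.5 CPM to 146, 156 and 153 CPM (log2 ratio 0.90, SE 0.08, adjusted p by edgeR = 0.00116), with no overlap. Nr3c1, the glucocorticoid receptor, whose activation is known to repress Ptgs2, rose from 81.4 to 91.1 CPM in the sham libraries to 126 to 128 CPM (log2 ratio 0.57, SE 0.06, adjusted p = 0.00297). The NF-kB subunit genes Rela (log2 ratio 0.35, SE 0.06, adjusted p = 0.00878) and Nfkb1 (0.35, SE 0.06, adjusted p = 0.0112) rose by similar amounts. Rela lost its call without tumour 1 (adjusted p = 0.0537) or tumour 3 (0.0571), and Nfkb1 without tumour 1 (0.0652), tumour 2 (0.0582), tumour 3 (0.0585) or sham 2 (0.052). The other 3 that rose, Nfkbia, Tsc22d3 and Il1r1, were outside the naming rule. Nfkbia lost its call without any 1 of the tumour libraries, and Tsc22d3 and Il1r1 without any 1 library other than sham 3. Of those not called, 2 early-response genes chosen after their values were seen were far lower in sham 3 than in the other libraries, as Ptgs2 was. The transcription factor gene Egr1 had 1399 to 1461 CPM in the tumour libraries, while sham 1 to 3 had 1683, 1690.0 and 479 CPM (adjusted p = 0.833). Zfp36, whose protein speeds the decay of Ptgs2 mRNA, had 451 to 469 CPM, while sham 1 to 3 had 583, 599 and 126 CPM (adjusted p = 0.926). This list holds activators and repressors of Ptgs2 alike, and Il1b had 0 reads in every library.

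In the lipoxygenase branch, which turns arachidonic acid into leukotrienes, 3 of 7 genes were tested and none was called (edgeR, 0 higher and 0 lower). Lta4h, the leukotriene A4 hydrolase gene, had 63.6 to 65.5 CPM in the tumour against 50.8, 54.5 and 63.9 CPM in the sham libraries (adjusted p = 0.175), and Alox5ap stayed at or below 2.07 CPM.

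The pattern of Ptgs2 over the 6 libraries was most like that of Nt5e, Aldh1a1 and Dpep1, by the root mean square difference of centred log2 CPM among 11318 genes of at least 5 CPM (0.076, 0.088 and 0.088). Nt5e, the ecto-5′-nucleotidase gene, had 184 to 189 CPM in tumour libraries 1 to 3, while sham 1 and 2 had 181 and 186 CPM and sham 3 had 56.1 CPM. Ptges, which hardly varied, was most like Dnajc5, Cnot8 and Epb41l5 (0.013, 0.022 and 0.024). These genes were chosen by their values, so this likeness is a description.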

How the data were processed

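The deposited tables list estimated counts per transcript (Salmon's NumReads), with TPM, length and effective length in bases, per the file headers. The submitters' processing notes name mm10, Salmon (version 0.8.2) and DESeq2 (version 1.28.1). The sources used here give no index, options, library kit or strand. The TPM values were computed by the authors and were summed per gene here. Of 113116 transcripts 112841 matched GENCODE M21 (GRCm38) by identifier without version, carrying 99.947% to 99.958% of reads; the other 275 were dropped. Gene totals of the deposited estimated counts were rounded to whole numbers. edgeR 4.0.16 (R 4.3.3) was used with TMM, filterByExpr (minimum count 10, minimum total 15) and a robust quasi-likelihood fit whose single term was the group. The SE was taken as |log2 ratio| over the root of F. DESeq2 1.42.0 and limma-voom (limma 3.58.1), other scalings, no filter, length offsets, a replicate block, each library left out and near libraries summed (without the robust option) were alternatives, and the tools were tested on simulated data. CPM values use TMM library sizes; log2 CPM has a prior count of 2. Fewer reads give less certain values, and 3 reads correspond to 0.116 to 0.136 CPM.

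The members, lists, tests and naming rule were chosen with earlier results of these data known. The rule names all 10 members, up to 4 called genes with the smallest p in each pathway list (or its 2 most abundant tested genes where none was called), and the 3 genes most like Ptgs2 and Ptges. Slco2a1, Cbr1, Egr1, Zfp36 and marker genes are named beyond it. Marker lists for mural cells (235 to 237 TPM summed in the tumour, 115, 118 and 273 TPM in sham 1 to 3), endothelium (270 to 277; 281, 291 and 237), oligodendrocytes (944 in each tumour library; 980.2, 1019 and 659), neurons (86.1 to 96.0; 82.8, 85.4 and 129) and neuroendocrine tumour (65.0 to 68.7; 71.5, 70.1 and 75.6) were also summed. Epcam had 6 to 8 reads in the tumour and 0 in the sham libraries.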

Additional observations from a re-analysis of the deposited data

How the results depend on the processing

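The rise of Ptgs1 kept its direction in all 14 alternatives and its call in 13. Without 1 library the count of members called higher ran from 1 to 3 and of those called lower from 0 to 4, that of other pathway genes called higher from 2 to 21 and lower from 1 to 16; the highest values came without sham 3. With near libraries summed all 4 counts were 0 (fewer samples). With length offsets 3 pathway genes were lower. The difference in the Ptgs2 share ran from -12.67 to 2.96 percentage points, the latter without sham 1. Log2 fold changes changed sign for Ptges with length offsets (0.03), for Pla2g4a without sham 3 (-0.058, up to 0.288 without sham 1) and for Hpgd without tumour 3 (0.11), sham 1 (0.07) or sham 2 (0.02) and with near libraries summed (0.038; lowest -0.232 without tumour 2); none of these was called in either fit. The cause was not tested. Of 350 alternative values for 25 named genes 283 kept direction and call.

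Same-numbered libraries did not deviate together from their group means (correlations of -0.019, -0.001 and 0.008). These values cannot decide whether the numbers mark pairs, because the sham deviations mostly reflect the sham library that stood apart. The labels do not say either. With the replicate number as a block, 1 member and 4 pathway genes were higher and 0 and 2 lower; same-numbered libraries did not always correlate best. Depth limits Ptger4 and Hpgd, with 19 to 71 reads per library.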
